A study of Mus musculus with 5 samples.

Results

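The adenosines of 5' untranslated regions (5' UTRs) were taken from direct RNA sequencing of mouse embryonic stem cells (mESCs). A position belonged to them if it lay in the 5' UTR of the principal, RefSeq-linked transcript of a protein-coding gene in GENCODE M21 (mm10), on the strand of the modification call. Of 512355 positions in all, 4656 on 305 genes met this rule, which was 0.909%. Among them, 413 positions on 164 genes lay in a DRACH motif (D is A, G or T, R is A or G, H is A, C or T, and the A is the called base), and 4243 lay outside it. The METTL3 inhibition dataset covered 4488 of the positions on 295 genes, the Mettl5 dataset covered 1295 on 105 genes, and 1127 were in both. The members were 0.567% of the 818421 adenosines in the annotated 5' UTRs of the 18943 transcripts used. In direct RNA sequencing a native mRNA is read from its poly(A) tail, so 5' ends are the least covered. The genes with members had a median 5' UTR of 199 bases, against 158 bases for all transcripts used, and a gene had a median of 9 members and at most 172.

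The METTL3 inhibition dataset held 1 library of cells that received the METTL3 inhibitor STM2457 at 30 μM over 48 h and 1 library of solvent controls with 0.025% v/v DMSO. Both came from E14 mESCs that carried the reporters 2C::3xtbGFP-PEST and Zscan4::mCherry-PEST, a doxycycline-controlled APOBEC1-YTH-HA-IRES-tdiRFP transgene that was not induced, and a homozygous FKBP12 F36V tag at the C-terminus of METTL3, also not induced. The Mettl5 dataset held 1 library of WT mESCs and 1 library from each of 2 Mettl5-KO clones, clone #1 and clone #2, made in an earlier study, and each knockout library therefore stands for a single clone. The paper states that the DMSO and STM2457 libraries were run on a single flow cell. Differences between the datasets in line, batch and run cannot be told apart.

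N6-methyladenosine (m6A) is deposited on mRNA mainly by the METTL3-METTL14 complex, which prefers the DRACH motif. Most mRNA m6A lies in long internal exons and near the stop codon, and the exon junction complex is known to keep the writer away from sequence near splice junctions. In the 5' UTR, m6A has been linked to cap-independent initiation and to the stress response, and the base after the cap can carry the related mark m6Am, which is made by PCIF1 and not by METTL3. METTL5 methylates 18S ribosomal RNA, and whether it also acts on mRNA was the question of the Mettl5 dataset.

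The sequences below are those that the results turn on, from the GENCODE M21 transcripts and written 5' to 3' with the called A as the third of the 5 bases in capitals. The first lines are the positions above 25% in both DMSO and WT and, with Epop, 1 that reached 25% in DMSO and both Mettl5-KO clones but not in WT.
Srsf2, chromosome 11, position 116853018, minus strand, exon 1: acccacgaGGACTgtagctac
Pcbp1, chromosome 6, position 86525964, minus strand, exon 1: gccgcccaGGACTtgaccacg
Epop, chromosome 11, position 97629320, minus strand, exon 1: cgccgttgGGACCagggcccc
The next lines are DRACH positions with the highest levels in DMSO.
Ptp4a3, chromosome 15, position 73751849, plus strand, exon 2: atctcactGGACTtggtgtgg
Ptp4a3, chromosome 15, position 73751333, plus strand, exon 2: cctcttcaGGACTtgccgttc
Ptp4a3, chromosome 15, position 73751645, plus strand, exon 2: gagggacaGGACTttggcgct
Tor1aip2, chromosome 1, position 156051572, plus strand, exon 3: actggcttGGACTagaggcct
Tor1aip2, chromosome 1, position 156051549, plus strand, exon 3: ctaatactGGACAggaaacag
Pigyl, chromosome 9, position 22157939, plus strand, exon 2: cgagaacaGAACTtttcaaac
Sqle, chromosome 15, position 59315737, plus strand, exon 1: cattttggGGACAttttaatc
The last lines are the methylated positions that do not match DRACH.
Slc1a5, chromosome 7, position 16781849, plus strand, exon 1: ggtcctaaGGACGtcacacct
Slc1a5, chromosome 7, position 16781794, plus strand, exon 1: gatccggtGGACGcataactt
Gm42742, chromosome 7, position 127017120, minus strand, exon 1: gaacggcaGAATTctgggtcc
Both Slc1a5 motifs end in G and so fall outside DRACH.

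The level of a position is the number of m6A calls over the valid calls of a library, in percent. Every position had at least 25 valid calls in each library of its dataset, and the median coverage of the 5' UTR positions was 58 in DMSO, 45 in STM2457, 62 in WT, 54 in clone #1 and 70 in clone #2. Calls that failed the confidence filter were 8.34% to 8.64% of all calls at these positions. The transcript base was an A at 99.7% of the positions. Of 8 markers of mouse embryonic stem cells, 8 were covered in the inhibition dataset and 6 in the Mettl5 dataset, while no marker of fibroblast feeders, primitive endoderm, mesoderm or trophectoderm was covered and 1 of 4 neural markers was covered in the inhibition dataset only. None of the 5' UTR positions lay on the Mettl5 or Mettl3 transcript. The other parts of these transcripts were not examined here, so the knockout was not checked from its own gene. With 1 library per condition, the p-values compare libraries and not conditions, and intervals cover counting error only.

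The 5' UTR DRACH positions carried m6A at low pooled levels, which sum the calls over positions. Their pooled level came to 5.38% in DMSO (95% exact binomial interval 5.18 to 5.59) and 0.990% in STM2457 (0.891 to 1.10) over 399 positions. Over 91 positions, WT had 3.36% (3.05 to 3.69), clone #1 2.89% (2.60 to 3.21) and clone #2 2.77% (2.49 to 3.08). The level in STM2457 was 81.6% lower than in DMSO. The intervals take all calls as independent and do not cover the spread between libraries, positions or genes. Outside DRACH the pooled level was 0.942% in DMSO, 0.871% in STM2457, 1.48% in WT, 1.44% in clone #1 and 1.39% in clone #2. No m6A call was made at 173 of the 399 DRACH positions in DMSO, and the median DRACH level was 1.06%. With each position given equal weight the mean DRACH level was 9.06% in DMSO and 1.83% in STM2457. It lay above the pooled level, in which deeply covered positions weigh more.

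A position was called methylated at 25% or more. In DMSO 49 DRACH positions and 3 others were methylated, together 52 on 24 genes, and the 49 were 12.3% of the 5' UTR DRACH positions (95% interval 9.23 to 15.9). The share was 9.54% in coding sequence and 18.7% in 3' UTRs, and 5489 of all 38273 DRACH positions were methylated. Just inside this threshold 9 DRACH positions lay between 25% and 30%, just outside it 8 lay between 20% and 25%, and 309 were under 10%. Of the 24 genes, 13 had 1 methylated position and 7 had at least 3, and these 7 held 31 of the 52. The interval of the 12.3% takes positions as independent, so it does not cover this grouping by gene. The 49 methylated DRACH positions read GGACT in 15, GGACA in 10, AGACT in 7, GGACC in 6, GAACT in 5 and TGACT in 4. GGAC led the motif in 63.3% of them, against 23.7% of the other 350 DRACH positions. They lay far from the annotated start, at a median of 498 bases against 196 for the others, and in long 5' UTRs, with a median length of 687 bases against 336. Their median coverage was 41 valid calls, against 58 for the others. In WT, 2 DRACH positions and 4 others were methylated, in clone #1 3 and 4, and in clone #2 3 and 2.

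Across motifs, the mean DMSO level was 30.7% for the 35 GGACT positions, 20.4% for the 36 GGACA positions, 18.3% for the 17 GAACT positions and 15.9% for the 18 AGACT positions. At the low end the 44 AAACN positions had a mean level of 1.73% and the 25 TAACN positions 0.680%. In STM2457 the GGACT mean was 8.24% and the TAACN mean 0.435%. Neither AAACN nor TAACN held a methylated position, while 31 of the 114 GGACN positions within DRACH were methylated.

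In the STM2457 library m6A was lower than in the DMSO library at some 5' UTR positions and higher at none that passed the test. At 42 positions on 21 genes the level was lower in STM2457 (Fisher's exact test, two-sided, Benjamini-Hochberg adjusted p below 0.05 over all 471848 positions of the dataset), which was 0.936% of the 5' UTR positions, against 1.35% of all positions. Of these, 36 were DRACH, or 9.02% of the 399, against 14.6% of all DRACH positions. No 5' UTR position was called higher, against 0.00254% of all positions, and at an unadjusted p below 0.05 8 were higher and 102 lower. The differences called ranged from 7.10 to 72.5 percentage points.

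The 49 methylated DRACH positions were chosen by their DMSO level, so their course is a description. All 49 had a lower level in STM2457, and their median went from 47.7% to 8.16%. The relative decrease had a median of 85.6% and ranged from 35.5% to 100%, while its median was 82.0% for the 1707 methylated DRACH positions of coding sequence and 80.4% for the 3733 of 3' UTRs. The test called 30 of the 49, or 61.2%, against 80.1% of all DRACH positions and 76.0% of all positions methylated in DMSO. In STM2457 5 of the 49 (10.2%) were still at 25% or more, against 20.5% in coding sequence and 19.3% in 3' UTRs, and 4 were at 0. These 5 were on Ptp4a3 and Tor1aip2. The methylated DRACH positions of coding sequence and 3' UTRs had higher medians in DMSO, 56.8% and 55.2%. The shares still at 25% or more therefore do not start from equal levels.

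**Figure D1:**
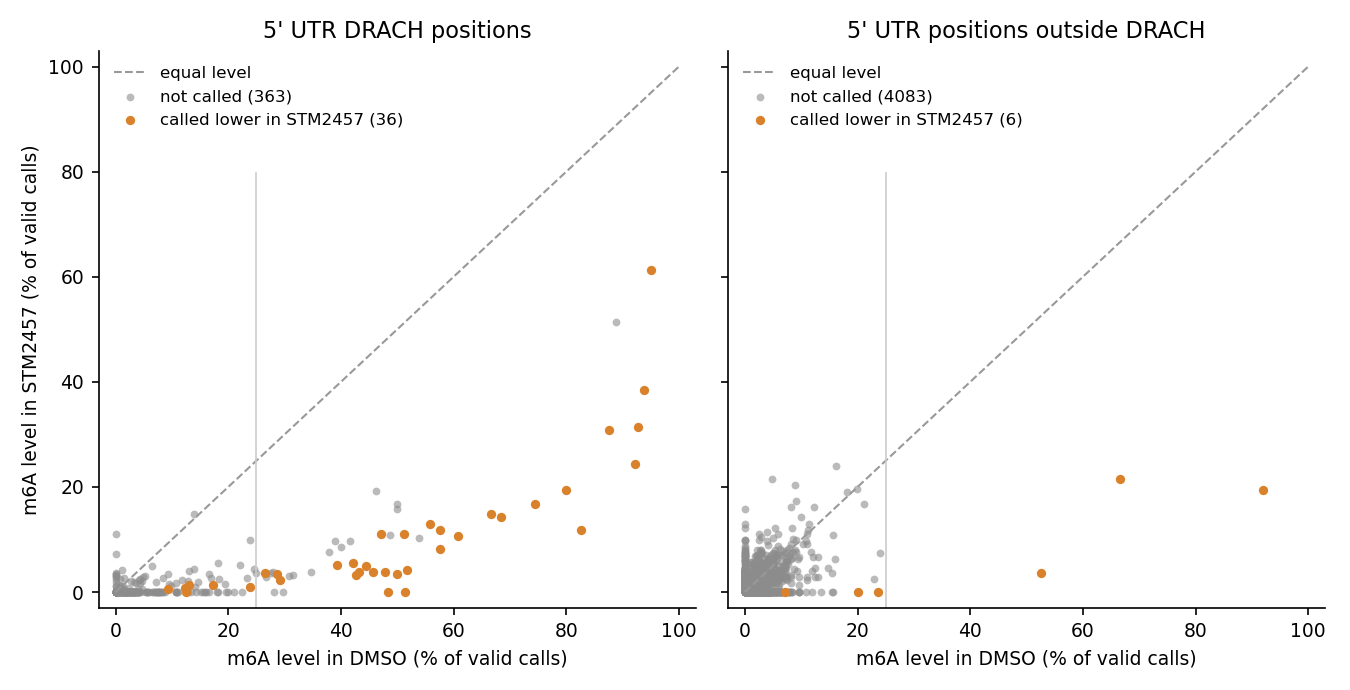
The m6A level of each 5' UTR position in DMSO (x axis, % of valid calls) against its level in STM2457 (y axis, % of valid calls), for 399 DRACH positions (left) and 4089 positions outside DRACH (right). Orange points are the 36 and 6 positions called lower by Fisher's exact test after adjustment, the dashed line marks equal levels and the vertical line marks 25% in DMSO. Every DRACH position past the vertical line lies below the dashed line.

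Ptp4a3, which encodes a protein tyrosine phosphatase, had the most methylated positions, 8 of 17 DRACH positions over the 886 bases of its annotated 5' UTR. At position 73751849, 813 bases from the start, the level was 95% of 40 valid calls in DMSO and 61.3% of 31 in STM2457 (adjusted exact p = 0.0441). This was the smallest relative decrease among the methylated DRACH positions, 35.5%. At position 73751333 it was 92.7% of 41 valid calls in DMSO and 31.4% of 35 in STM2457 (adjusted exact p = 4.29e-06). At position 73751645 the levels were 88.9% of 36 and 51.4% of 37, which did not pass the test (adjusted exact p = 0.0529). The other 5 Ptp4a3 positions ranged from 40% to 80% in DMSO and from 5.56% to 19.4% after STM2457, so that 3 GGACT positions kept the highest levels in both libraries. The mean over its 17 DRACH positions was 33.5% in DMSO and 12.3% in STM2457. In the same dataset 1 DRACH position of its coding sequence was covered and 0 of its 3' UTR. The 3' UTRs of Slc1a5, Tor1aip2, Sqle and Sap30, described below, also had 0 covered DRACH positions. Reads start at the poly(A) tail, and which RNAs the reads over these 5' UTRs came from was not tested.

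Brd2, a bromodomain reader of acetylated histones, has an annotated 5' UTR of 1708 bases, of which the reads covered only the last part, from base 1024. It held 5 methylated DRACH positions among 11, at 31.4% to 55.9% in DMSO and 0% to 16.7% in STM2457. At the AGACT position 34118900 the level was 51.4% of 35 valid calls in DMSO and 0% of 30 in STM2457 (adjusted exact p = 0.000222), where the count of 0 allows a level of up to 11.6%. The mean over its 5' UTR DRACH positions was 22.0% in DMSO, above the mean of 3.01% over 40 DRACH positions of its coding sequence. Its 3' UTR had a mean of 17.2% over 7 DRACH positions. These means were not compared by a test, and in Slc1a5, described next, the order was the other way, with 29.4% in the 5' UTR and 50.7% over 4 DRACH positions of coding sequence.

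Slc1a5, a neutral amino acid transporter that takes up glutamine, held 5 methylated positions within the last 133 bases before its start codon. At the GGACC position 16781810 the level was 68.4% of 38 valid calls in DMSO and 14.3% of 28 in STM2457 (adjusted exact p = 0.00151). The GGACG positions 16781849 and 16781794, outside DRACH, were at 66.7% and 52.6% in DMSO and at 21.4% and 3.70% in STM2457 (adjusted exact p = 0.0328 and 0.00262). The other methylated DRACH positions of Slc1a5 were at 46.2% and 37.8% in DMSO and at 19.2% and 7.69% in STM2457 and did not pass the test (adjusted exact p = 1 and 0.450).

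Tor1aip2, an endoplasmic reticulum membrane protein that activates torsin ATPases, had 4 methylated DRACH positions over the covered part of its 5' UTR, bases 774 to 1096 of 1206. At position 156051572 the level was 93.8% of 48 valid calls in DMSO and 38.5% of 26 in STM2457 (adjusted exact p = 6.28e-05). At position 156051549, nearby in the same exon, it was 87.5% of 48 and 30.8% of 26 (adjusted exact p = 0.000152). Its other methylated positions were at 34.7% and 28.0% in DMSO and both at 3.85% in STM2457, without passing the test.

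**Figure D2:**
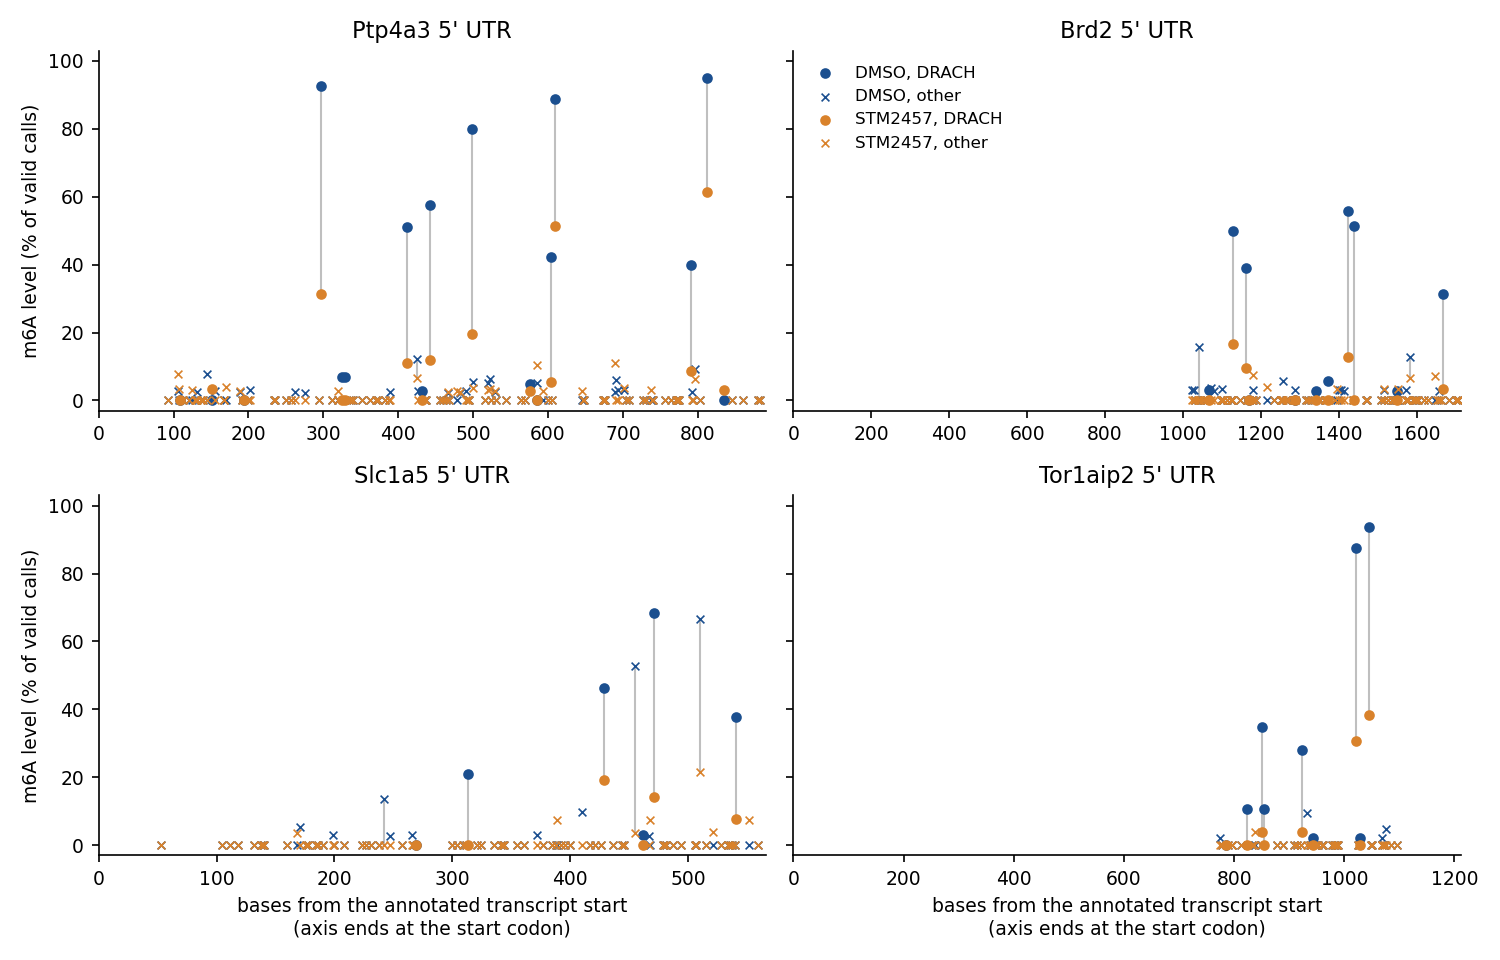
The m6A level (y axis, % of valid calls) of each covered adenosine along the 5' UTR (x axis, bases from the annotated transcript start, ending at the start codon) of Ptp4a3, Brd2, Slc1a5 and Tor1aip2, the 4 genes with the most methylated positions, in DMSO (blue) and STM2457 (orange). Circles are DRACH positions, crosses other positions, and grey lines join the levels of positions at 10% or more in DMSO. Methylated positions stand among neighbours near 0, and in Brd2 and Tor1aip2 the reads do not cover the first part of the 5' UTR.

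Sqle and Pigyl each had 3 methylated positions. In Sqle, the squalene epoxidase of cholesterol synthesis, position 59315737 was at 82.6% of 46 valid calls in DMSO and 11.9% of 42 in STM2457 (adjusted exact p = 2.79e-09), and position 59315607 was at 74.5% and 16.7% (adjusted exact p = 4.49e-06). In Pigyl, a factor of GPI anchor synthesis by its name, position 22157939 was at 92.2% of 64 valid calls and 24.3% of 70 (adjusted exact p = 9.62e-14), and position 22157967 was at 66.7% and 14.9% (adjusted exact p = 5.99e-08). At these 4 positions the decrease was 73.7% to 85.6% of the DMSO level.

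Other genes had 1 to 3 methylated positions, and those named first were picked after their values were seen. In Sap30, a subunit of the Sin3 histone deacetylase complex, the GGACT position was at 50% of 52 valid calls in DMSO and 3.45% of 58 in STM2457 (adjusted exact p = 1.55e-06). In Dusp6, a phosphatase of ERK, a TGACT position was at 48.4% of 31 and 0% of 31 (adjusted exact p = 0.000729). In Eed, a core subunit of PRC2, a GGACC position was at 48.6% of 37 and 10.8% of 37, which did not pass the test (adjusted exact p = 0.0529). In Arf6, a small GTPase of membrane traffic, a GGACA position was at 47.7% of 111 and 3.85% of 78 (adjusted exact p = 1.28e-09). Tex19.1, which acts in germ and pluripotent cells, came in by the rule for naming and had an AGACT position at 51.6% of 91 and 4.12% of 97 (adjusted exact p = 9.63e-12). At the positions named here that passed the test, the decrease was at least 91.9% of the DMSO level.

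Some positions under 25% in DMSO fell as well, with 9 called at 7.10% to 23.8%. Among them was a GGACT position of Eif6, a factor that keeps ribosomal subunits apart, at 23.8% of 210 valid calls in DMSO and 0.935% of 107 in STM2457 (adjusted exact p = 6.42e-07). At a GAACT position of Sf3b5, a splicing factor, the level was 13.1% of 359 and 1.4% of 214 (adjusted exact p = 2.48e-05). Both were chosen after their values were seen. In Sf3b5 the annotated 5' UTR is 3280 bases long and the position lay 118 bases before the start codon, so its distance to the start depends on that model.

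Outside DRACH, 6 positions were lower in STM2457, and those other than Slc1a5 are named here after their values were seen. Of these 4 keep most of the motif with a G at its end, in addition to the Slc1a5 positions a GAACG position of H1f0, a linker histone, at 23.6% in DMSO and 0% in STM2457, and a TGACG position of Epop at 7.10% and 0%. The CAACT position of Pigyl was at 20% and 0%. Over all 104 DRACG positions the mean level was 3.71% in DMSO and 1.17% in STM2457, whereas it was 0.789% and 0.426% over 133 CRACH positions and 0.931% and 0.820% over the remaining 3852. The GAATT position of Gm42742 was the highest outside DRACH, at 91.9% of 37 valid calls in DMSO and 19.4% of 31 in STM2457 (adjusted exact p = 1.39e-07). An exon of Pagr1a covers this position on the same strand, and whether the base differs in the E14 line was not tested. The first A of an upstream ATG was not methylated at any of 77 such positions in DMSO, with a highest level of 13.5%.

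In DMSO the DRACH level was higher farther from the annotated start. The pooled level was 0.567% over 6 positions in bases 1 to 20, 0.637% over 19 in bases 21 to 50, 2.89% over 60 in bases 51 to 100, 3.25% over 102 beyond 100 and up to 200 bases, 8.62% over 143 beyond 200 and up to 500 bases and 15.3% over 69 beyond 500. In bases 21 to 50, 6020 of the 8326 valid calls came from the Rpl8 position, at 0.116%. Means of positions were 0.908%, 2.85% and 4.31% in bases 1 to 20, 21 to 50 and 51 to 100. None of the 25 DRACH positions in the first 50 bases was methylated, and their highest level was 18.2%. The methylated positions were 4, 5, 16 and 24 in the 4 farther classes. In STM2457 the pooled level was 0.401% in bases 51 to 100 and 3.21% beyond 500. The classes hold different genes, and the class beyond 500 holds only genes with long 5' UTRs, Ptp4a3 among them, so distance and gene cannot be told apart.

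The Mettl5 libraries did not show a stable order by distance. Beyond 100 bases from the start WT had a pooled level of 3.82%, clone #1 of 3.78% and clone #2 of 3.81%, and within 100 bases it was 2.67%, 1.76% and 1.86%. With each position given equal weight the order turned, with 2.57%, 3.10% and 2.77% beyond 100 bases and 5.38%, 4.64% and 4.99% within, over only 75 and 16 positions. The GGACT position of Srsf2, 77 bases from the start, is among the 16. In DMSO the level was higher beyond 100 bases under both weightings, by 6.23 and 6.76 percentage points.

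**Figure D3:**
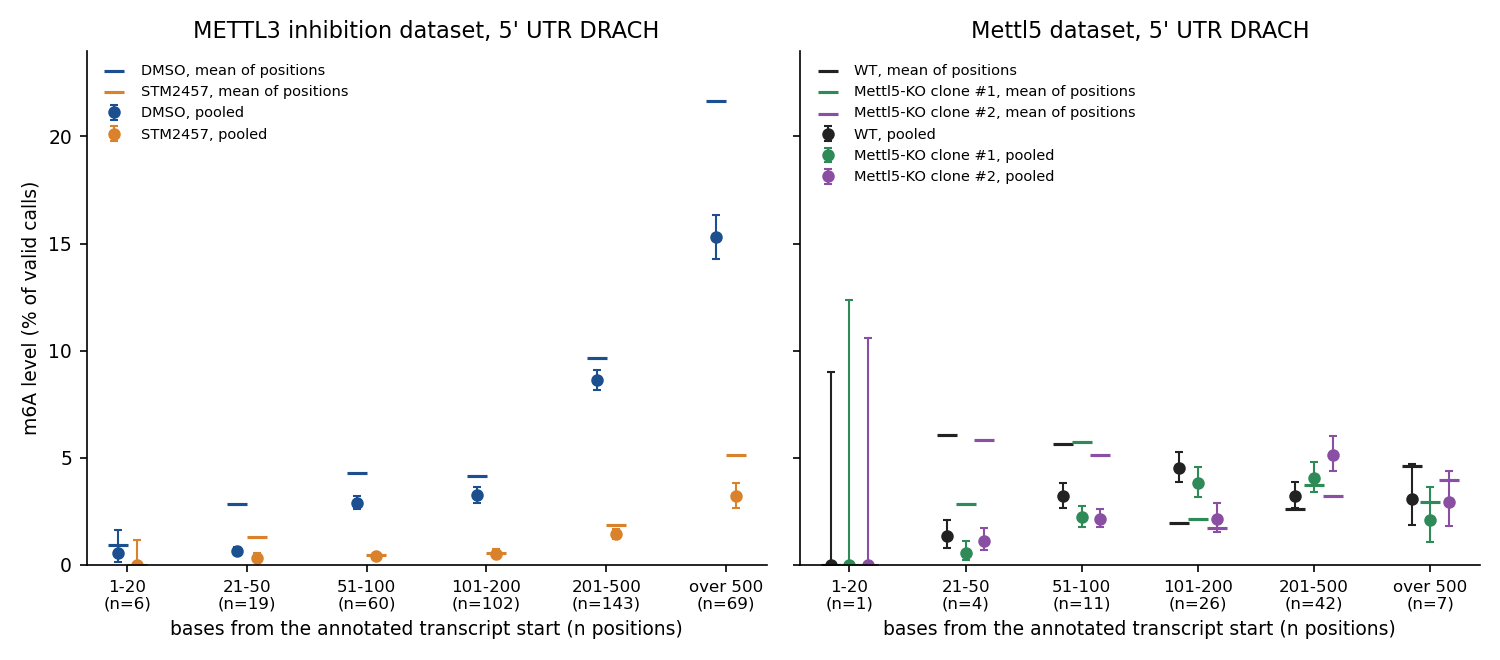
The m6A level of 5' UTR DRACH positions (y axis, % of valid calls) by distance from the annotated transcript start (x axis, bases, with the number of positions), for DMSO and STM2457 (left) and for WT and the Mettl5-KO clones (right). Circles are pooled levels with exact binomial 95% intervals and short lines are means of the positions. In DMSO the pooled level goes from 0.567% in bases 1 to 20 to 15.3% beyond 500, while on the right it is also low in the first 50 bases but not highest beyond 500, and the means are in another order.

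The first bases of the transcripts held little m6A among the valid calls, and more calls failed there. In bases 1 to 20, failed calls outside DRACH were 19.1% of calls in DMSO and 19.6% in STM2457. At DRACH positions in these bases they were 9.11% and 10.6%, against 4.01% and 3.85% over all 5' UTR DRACH positions. The levels leave failed calls out. Within 20 bases of the annotated start 97 positions on 43 genes were covered, and 3 were the first base itself, on Epop, Eif3k and Jund. At the first base the m6A level was 0% of 79 valid calls in Epop, 4.29% of 70 in Eif3k and 0% of 89 in Jund in DMSO, and 0% of 57, 0% of 32 and 1.12% of 89 in STM2457. The first base of Jund drew calls of the class for other modifications (inosine or 2'-O-methyladenosine), 19.1% of the valid calls in DMSO and 23.6% in STM2457. Beside the 89 valid calls of each library, 38 calls failed there in DMSO and 43 in STM2457. Over the 33 positions in bases 1 to 10 the pooled m6A levels of DMSO and STM2457 were 0.743% and 0.745%. Within 20 bases of the start, the 5 genes with the most deeply covered positions were Rack1, Dppa5a, Mif, Eif3f and Srsf2, a ribosomal scaffold, a pluripotency-associated RNA-binding protein, a cytokine, an initiation factor subunit and a splicing factor. Their positions ranged from 1.0% to 4.76% in DMSO and from 1.31% to 5.35% after STM2457, none of which passed the test. Annotated and used start sites can differ, so the base next to the cap may lie elsewhere in some transcripts.

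Relative to other parts of the mRNA, the pooled DRACH level of the 5' UTR was near that of coding sequence and below that of 3' UTRs. Coding sequence had 4.49% in DMSO and 1.25% in STM2457, and 3.26%, 3.30% and 3.45% in WT, clone #1 and clone #2. The 5' UTR was lower in 3 of 5 libraries, with a mean difference of -0.0698 percentage points ± 0.608 (SD, n = 5 libraries), which was not beyond the spread (exact sign-flip permutation test, two-sided, p = 0.8125). As a mean of positions the difference was -0.846 (exact permutation p = 0.1875). Against 3' UTRs, at 12.6%, 3.04%, 8.31%, 9.15% and 9.24% in the same order, it was lower in 5 of 5 libraries, by -5.38 ± 2.03 (exact permutation p = 0.0625, the smallest that 5 libraries allow). The libraries of a dataset share their positions, so the 5 differences of each comparison are not independent. Without the TOP (5' terminal oligopyrimidine) mRNAs listed below, the pooled 5' UTR DRACH level in DMSO was 7.53%. The regions were not compared without these mRNAs. Within genes with at least 3 DRACH positions in both regions, the 5' UTR mean in DMSO was above that of coding sequence in 11 of 36 genes and above that of the 3' UTR in 6 of 18.

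Distance to an exon junction was related to the level in all regions. In DMSO the mean level of 5' UTR DRACH positions was 1.85% within 50 bases of a junction, 8.41% at 51 to 100, 6.4% at over 100 to 200 and 13.1% beyond 200. Coding sequence went from 1.31% to 25.3% and 3' UTRs from 3.70% to 13.6% between the nearest and the farthest class. Of the methylated 5' UTR DRACH positions 71.4% lay more than 200 bases from a junction, against 45.4% of the other DRACH positions. In transcripts without a junction the mean was 5.16% over 32 positions, below the 19.0% of coding sequence.

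Among positions beyond 200 bases from a junction, chosen for comparison after the data were seen, the 5' UTR stood lower than coding sequence. For GGACT the mean level in the 5' UTR was 33.9% in DMSO over 19 positions, 8.18% in STM2457, 19.1% in WT over 4 positions, 20.2% in clone #1 and 15.7% in clone #2. The same motif had 74.2%, 31.0%, 68.0%, 69.2% and 70.3% in coding sequence. The difference was -43.2 percentage points ± 12.5 (SD, n = 5 libraries) against coding sequence and -17.7 ± 5.65 against 3' UTRs, lower in 5 of 5 libraries both times (exact permutation p = 0.0625, the smallest possible). The libraries of a dataset share the same 19 or 4 positions, so the 5 differences are not independent. The SD is a spread of libraries, and the spread over positions or genes was not tested. For all DRACH positions beyond 200 bases the pooled level was lower than in coding sequence in 5 of 5 libraries, by -2.78 ± 0.950 (exact permutation p = 0.0625), and lower than in 3' UTRs in 4 of 5, by -0.678 ± 1.26 (exact permutation p = 0.3125). Reads start at the poly(A) tail, and the part of coverage in these differences was not tested.

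**Figure D4:**
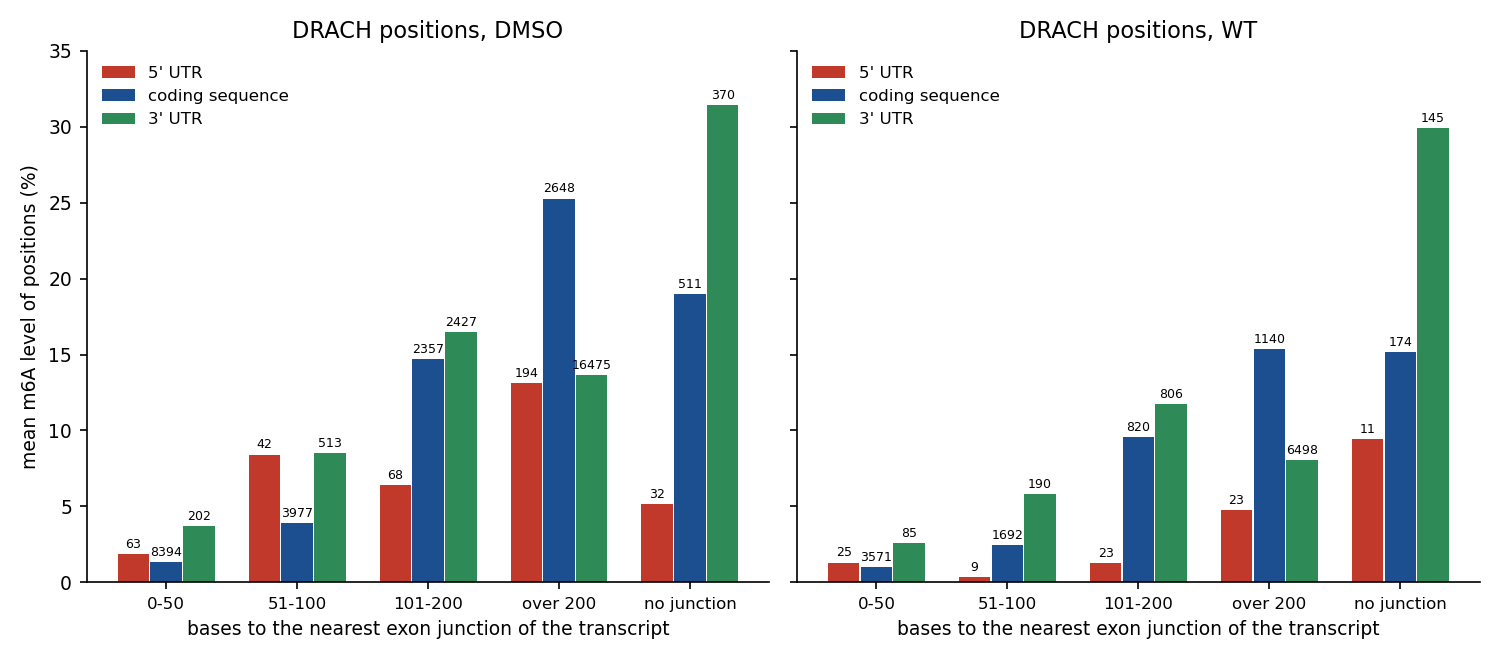
The mean m6A level of DRACH positions (y axis, %) by distance to the nearest exon junction of the transcript (x axis, bases) in the 5' UTR (red), coding sequence (blue) and 3' UTR (green), in DMSO (left) and WT (right). Numbers above the bars count the positions. Beyond 200 bases in DMSO the 5' UTR has 13.1% and coding sequence 25.3%.

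No 5' UTR position passed the test in either Mettl5-KO clone. In clone #1 and in clone #2, 0 of 1295 positions were lower and 0 higher than in WT (Fisher's exact test, two-sided, adjusted over 195787 positions), against 0.00204% and 0.00306% of all positions lower and 0.0% and 0.00358% higher. At an unadjusted p below 0.05 3 were lower and 3 higher in clone #1, and 9 lower and 3 higher in clone #2. The 91 DRACH positions were higher in 29, lower in 27 and equal in 35 in clone #1, and higher in 28, lower in 24 and equal in 39 in clone #2, with a median difference of 0 in both. Single differences ranged from -10.8 to 18.0 percentage points in clone #1 and from -9.13 to 13.4 in clone #2. The pooled DRACH level of the clones was on average -0.527 percentage points from that of WT. The mean of the positions had the other order, at 3.07% in WT, 3.37% in clone #1 and 3.16% in clone #2, so no direction is drawn.

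The positions methylated in both datasets, chosen by their levels in DMSO and WT, were those of Srsf2, an SR splicing factor, and Pcbp1, an RNA-binding protein of poly(C) stretches. The Srsf2 position, 77 bases from the start, was at 57.5% of 372 valid calls in DMSO, 8.16% of 245 in STM2457, 49.4% of 180 in WT, 47.6% of 124 in clone #1 and 42.3% of 175 in clone #2. The Pcbp1 position, 49 bases before the start codon, was at 42.7% of 723, 3.28% of 488, 41.3% of 184, 33.2% of 217 and 38.8% of 278 in the same order. In both, STM2457 stood apart from the other 4 libraries (adjusted exact p = 1.10e-35 and 9.80e-59 against DMSO), and the intervals of the clones overlapped that of WT. The intervals for Srsf2 were 41.9% to 57% in WT, 38.5% to 56.7% in clone #1 and 34.9% to 50% in clone #2.

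Epop, which links elongin BC to PRC2, had a GGACC position at 26.5% of 162 in DMSO, 3.55% of 141 in STM2457, 11.6% of 43 in WT, 29.6% of 27 in clone #1 and 25% of 44 in clone #2. The clones were above WT there, but the intervals, 3.89% to 25.1% in WT and 13.8% to 50.2% in clone #1, overlapped. Jund, an AP-1 transcription factor, had a GGACT position 28 bases from the start at 17.2%, 1.4%, 22.0%, 11.1% and 22.4% in the order of the libraries, the nearest to a start among the 6 DRACH positions at 10% or more in both DMSO and WT.

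**Figure D5:**
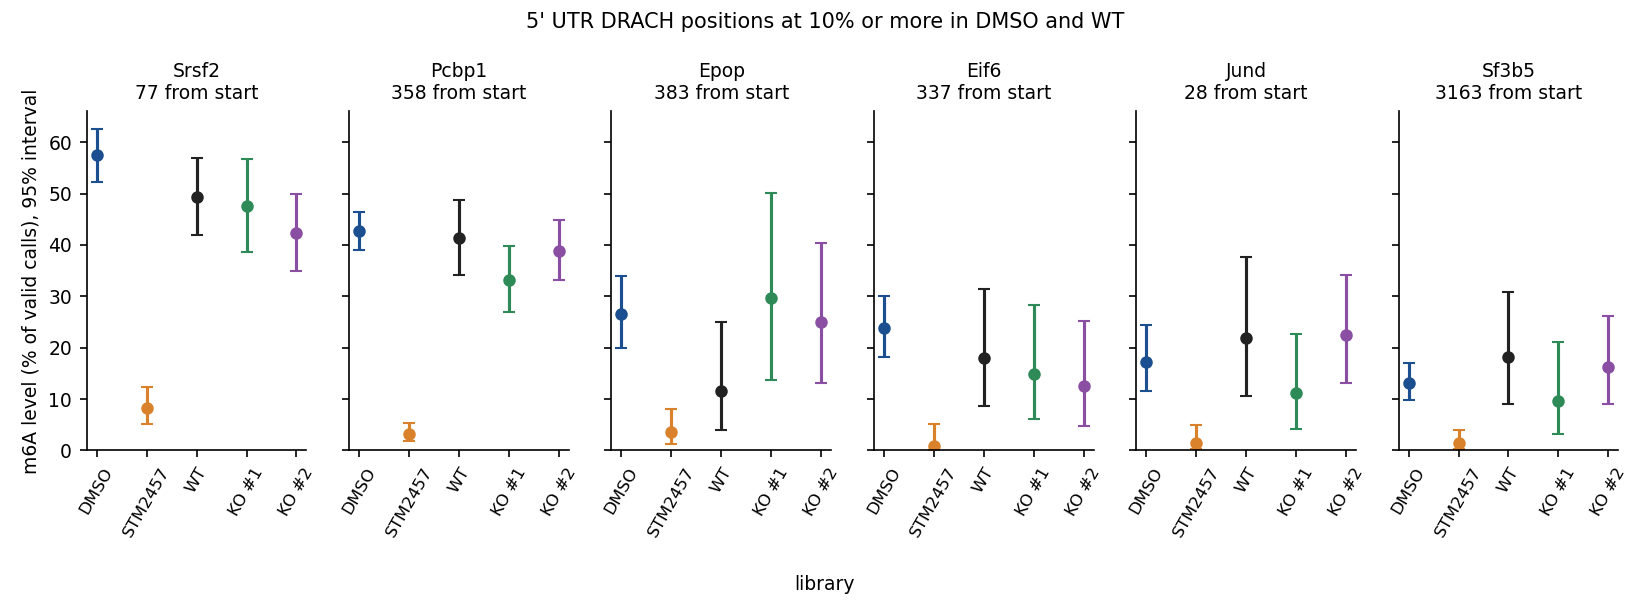
The m6A level (y axis, % of valid calls) with its exact binomial 95% interval in each of the 5 libraries (x axis) for the 6 DRACH positions of 5' UTRs at 10% or more in both DMSO and WT, named by gene and distance from the annotated start. STM2457 is the lowest library in each panel, and the intervals of the Mettl5-KO clones overlap that of WT. The positions were chosen by their levels in DMSO and WT, so this order is a description.

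The 5 positions with the lowest p over both clones lay outside the methylated set, and each had a low level in WT. Only the CCACC position of Pcbp1 was under an unadjusted p of 0.05 in both, at 4.24% of 118 valid calls in WT, 0% of 130 in clone #1 and 0.518% of 193 in clone #2 (unadjusted exact p = 0.0233 and 0.0310). The others were on Aldoa, a glycolytic enzyme, Eef1a1, an elongation factor, Pim3, a kinase, and Bex3, an adaptor protein. The Aldoa position was at 6.90% in WT, 1.06% in clone #1 and 1.37% in clone #2, and the Pim3 position at 10.3% of 29 valid calls in WT and 0% in both clones. The Eef1a1 position went the other way, from 1.88% of 2655 in WT to 2.96% of 3011 and 2.57% of 3729. All had an adjusted p of 1.

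Outside DRACH, the 4 positions methylated in WT were on Zfp42, Mycn, Eif5 and Jund, named here after their values were seen. With failed calls in the denominator, or at a coverage of 50 in each library, 0 of them were methylated. The TCATA position of Zfp42, a pluripotency-associated zinc finger protein, was at 10.3% of 261 valid calls in DMSO, 9.13% of 208 in STM2457, 35.9% of 92 in WT, 41.7% of 36 in clone #1 and 21.2% of 33 in clone #2. The interval of WT, 26.1% to 46.5%, lay above that of DMSO, 6.93% to 14.7%, while that of clone #2, 8.98% to 38.9%, overlapped both. The ATACG position of Jund was at 18.1%, 19.0%, 28.1%, 13.9% and 20% in the same order, with overlapping intervals. The Mycn and Eif5 positions, covered in the Mettl5 dataset only, were at 32.6% and 25.9% in WT and between 28.0% and 34.8% in the clones.

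Few members lay on mRNAs with known 5' UTR control, although these lists held members more often than the 305 of 18943 genes overall. A list of 105 mRNAs, mostly of the translation machinery, stood for mRNAs with a 5' terminal oligopyrimidine (TOP) tract. It was made by gene symbol, and the tract was not checked. Of these mRNAs 12 had members, 75 in number, and their 6 DRACH positions had a pooled level of 0.177% in DMSO and none over 0.551%. Of 21 mRNAs with upstream reading frames or a role in stress, Atf4, Eif5, Mycn, Odc1 and Slc35a4 had members, and 1 of their 11 DRACH positions in DMSO was methylated, on Slc35a4, a transporter of the nucleotide sugar family with a known upstream reading frame, at 53.8% of 26 valid calls and 10.3% of 29 in STM2457 (adjusted exact p = 0.0683). Of 20 pluripotency mRNAs, Dppa5a, Trim28, Utf1 and Zfp42 had 72 members, of which 2 were DRACH and at 0.529% or less in DMSO. None of 25 genes that write, read or erase m6A or m6Am had a member. No position of these lists was called lower or higher in STM2457, against 0.936% called lower over all 5' UTR positions.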

How the data were processed

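The authors split the reads by barcode with WarpDemuX, used dorado for basecalling, modification calling and alignment (mm10), and ran modkit for pileups. The deposited counts per position are valid, m6A, unmodified, other-modification and failed calls without normalization, and the deposited percent is the m6A share of valid calls, which leaves failed calls out. Reads start at the poly(A) tail, and the positions had at least 25 valid calls in each library of their dataset. How 5' UTR coverage depends on transcript length or abundance was not tested. Some 5' UTRs, that of Ptp4a3 among them, were covered while no DRACH position of the 3' UTR was. Levels were recomputed from the counts. Each gene was given its RefSeq-linked APPRIS principal transcript of GENCODE M21, since the UCSC RefSeq track was not used here. A two-sided Fisher's exact test was run per position, adjusted by Benjamini-Hochberg across the whole dataset, regions with an exact sign-flip permutation test over 5 libraries, and shares have exact Clopper-Pearson 95% intervals (scipy 1.17.1 and pandas 2.3.3 in Python 3.11.15, numpy 2.4.6, matplotlib 3.10.9). The Fisher test was checked on simulated counts. STM2457 was compared with DMSO and each clone with WT.

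The positions and gene lists were chosen with earlier results of these data known. Positions named were the DRACH positions highest in DMSO and those with the smallest decrease at 40 or more valid calls, the 5 with the lowest larger p over both clones, the most deeply covered within 20 bases of a start, the 4 genes with most methylated positions and positions methylated in both datasets. The part of the rule for positions highest in DMSO outside DRACH, at 40 or more valid calls, found none. Alternatives were other thresholds, coverage, denominators, weights, transcripts and adjustments, and each clone left out.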

Additional observations from a re-analysis of the deposited data

How the results depend on the processing

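Of the values recomputed, 93 kept their direction and side of the threshold, stayed within 1.5 times for counts or, with no test, moved by less than their error, 38 moved further and 8 reversed. Within the 93, positions lower in STM2457 ranged from 28 (adjusted p below 0.01) to 52 (adjusted over methylated positions), the difference from coding sequence from -43.2 to -0.0617 and that from 3' UTRs from -17.7 to -0.678. The counts of positions called in either Mettl5-KO clone or higher in STM2457 were 0 under all alternatives run, each clone left out included. Some of these alternatives, such as a stricter adjusted p or a minimum difference, only filter the called positions, so these counts could not change. The 93 include such counts, and also differences between regions whose exact permutation p could not fall below 0.0625. Leaving out a clone moved the pooled difference of the clones from WT between -0.586 and -0.467 percentage points. At thresholds of 10% and 50%, 90 and 22 DRACH positions were methylated in DMSO and 7 and 0 in WT, and outside DRACH 37 in DMSO at 10% and 27 and 0 in WT. At a coverage of 50, 10 DRACH positions and 0 others were methylated in DMSO and 0 others in WT, where failed calls in the denominator also left 0, and 19 positions were called lower in STM2457. The pooled DRACH level in DMSO was 3.84% at a coverage of 50, 5.17% with failed calls, 9.06% as a mean of positions, 7.53% without TOP mRNAs and 3.17% at positions of both datasets. In STM2457 it was 0.60% at a coverage of 50, 1.83% as a mean, 1.31% without TOP mRNAs and 0.451% at shared positions. In WT it was 4.64% without TOP mRNAs and 3.01% at shared positions, in clone #1 3.37% as a mean and 4.36% without TOP mRNAs, and in clone #2 3.16% and 4.69%. The relative decrease was 84.4% at a coverage of 50, where the difference from coding sequence turned to 0.304 (exact permutation p = 0.4375). The DRACH level beyond minus within 100 bases of the start was 6.76, 3.72, 5.44 and 5.54 in DMSO and 1.54, 0.825, 0.694 and 0.752 in STM2457 as a mean, without TOP mRNAs, with the most upstream start and, added later, without Ptp4a3. The first 3 of these gave -2.81, -6.95 and -1.35 in WT, -1.53, -5.29 and 0.192 in clone #1 and -2.22, -5.65 and 0.337 in clone #2. The cause was not tested. With 1 library per condition and a median coverage of 41 at methylated positions, small differences were not detectable. Most adenosines of annotated 5' UTRs were not covered.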
